A study of Mus musculus with 5 samples.

Results

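The inhibitory receptors that T cells carry beside PD-1 were examined in tumor-infiltrating CD8+ T cells after PD-L1 blockade. The set held 8 genes, chosen by name from the 23337 genes listed in every count file: Havcr2, Lag3, Tigit, Ctla4, Btla, Cd160, Cd244 and Cd101. All 8 passed the filter on low counts, as did 11299 genes in all. The 2 anti-PD-L1 libraries came from mice given a blocking antibody to PD-L1 (clone 10F.9G2), and the 3 Control IgG libraries from mice given a rat IgG2b against KLH, with 200 µg of antibody injected on day 3 and again on day 6 after transfer of T cells. In every library the cells were CD8+ T cells of C57BL/6J CD45.1 OT-I mice aged 6 to 12 weeks, whose T cells carry a fixed receptor, specific for a peptide of ovalbumin. They had been activated in culture with antibodies to CD3 and CD28, kept in low-dose interleukin-2 until day 5 or 6 and injected intravenously into mice bearing a B16-OVA tumor, a melanoma line that makes ovalbumin. Cells were recovered on day 8 or once a tumor measured 1.2 cm across, pooled over several mice of a group, and isolated by a sort for viable CD8+ cells with the CD45.1 donor marker. PD-1 and Tim-3 antibodies were in the stain and are not given as gates. Strain and age of the tumor-bearing mice are not stated in those labels.

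Inhibitory receptors dampen signals from the T cell receptor and from costimulation. Activated T cells make several of them for a short time, and T cells that meet antigen persistently, as in chronic infection or a tumor, keep several at once, a state called exhaustion. The known ligands of these receptors are molecules other than PD-L1. In mouse tumors and chronic infection, Tim-3, CD101 and CD244 (2B4) are best known from the late, terminally differentiated exhausted cells, while BTLA is also made by naive and progenitor T cells.

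The libraries had 9985943 to 12830485 counts assigned to genes. Those numbered 1 in each group stood apart, with 11977 genes detected in anti-PD-L1 replicate 1 and 11696 in Control IgG replicate 1, against 13564 to 13801 in the other 3, so results are also given without them. Marker genes fitted the label, with CD8+ T cell markers summing to 8890 to 9970 CPM after anti-PD-L1 and 8390 to 8880 CPM in Control IgG, where CPM is a count scaled to a library total that is the same for all libraries. Cd4 had 0 and 4 counts after anti-PD-L1 and 0, 0 and 16 counts in Control IgG.

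In anti-PD-L1 replicate 1 every receptor gene lay beyond all 3 Control IgG values, above or below, and in the second anti-PD-L1 library a single one did. Replicate 1 lay above all 3 controls for 5 genes (Havcr2, Lag3, Tigit, Cd244 and Cd101) and below them for 3 (Ctla4, Btla and Cd160). Over all tested genes, 26.3% lay above the controls in that library, 30.6% below and 56.9% outside in either direction. In replicate 2, Ctla4 was the gene above all 3 controls and 0 of the 8 lay below, against 21.7% above, 20.9% below and 42.5% outside over all tested genes. This count was chosen after the values were seen. No receptor gene had both anti-PD-L1 libraries above all controls, where 7.74% of tested genes did, and none had both below, where 9.58% did.

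**Figure D1:**
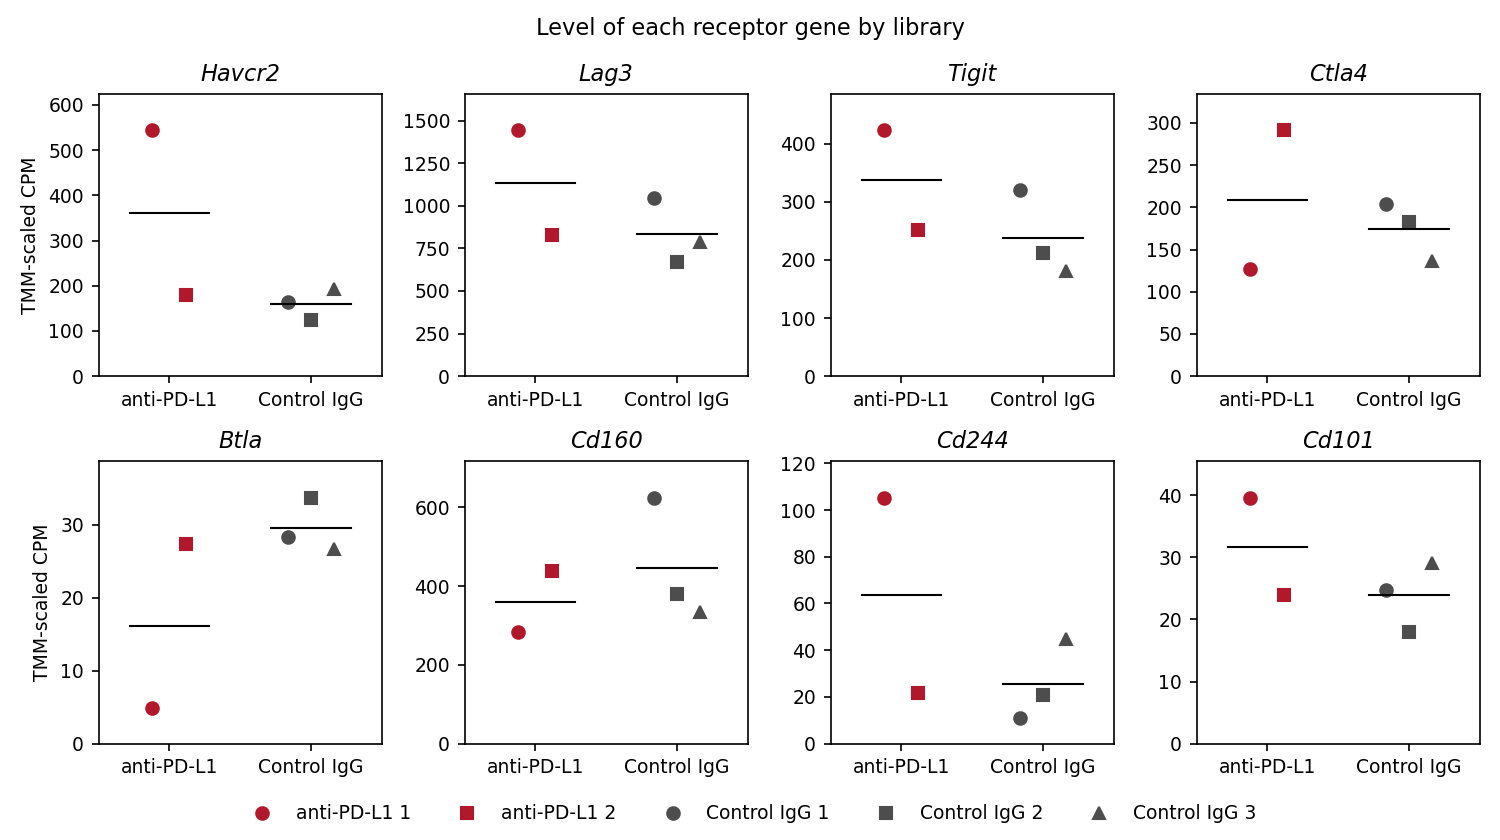
Level of each receptor gene (y axis, CPM scaled by TMM factors, from 0) in the 2 anti-PD-L1 and 3 Control IgG libraries; points are libraries, their shapes give the replicate number and lines are group means. Havcr2 stands at 544 CPM in anti-PD-L1 replicate 1 and at 179.6 CPM in replicate 2, the second of which lies among the controls at 124 to 192 CPM.

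None of the 8 genes passed an adjusted p of 0.05 in edgeR's quasi-likelihood test, and 0% of the 11299 tested genes did so in either direction. The smallest adjusted p over all genes was 0.9999. DESeq2 called 0 of the 8, and 0.0265% of the 15088 genes it tested as higher and 0% as lower. At an unadjusted p under 0.05, 1 of the 8 was higher (Havcr2) and 0 were lower, against 1.19% of tested genes higher and 0.947% lower. Of the 8 fold changes 6 were above 0, where 48.1% of tested genes were, and their median was 0.42 on the log2 scale against -0.02 over all tested genes. That median was -0.01 without anti-PD-L1 replicate 1, with 3 of 8 above 0, and 0.78 without anti-PD-L1 replicate 2.

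Havcr2 encodes Tim-3, an immunoglobulin and mucin domain receptor. The gene lies on chromosome 11 from 46454935 to 46481255, plus strand, on GRCm38. It stood at 544 CPM and 179.6 CPM in the anti-PD-L1 libraries 1 and 2, against 165, 124 and 192 CPM in Control IgG replicates 1, 2 and 3. Replicate 1 after anti-PD-L1 was thus the single high library, 3.39 times the control mean, and replicate 2 lay among the controls. The group means were 362 ± 258 CPM after anti-PD-L1 (SD, n = 2) and 160.2 ± 34.5 CPM in Control IgG (SD, n = 3). The log2 fold change was 1.17 ± 0.43 (SE), at an unadjusted p of 0.0261 and an adjusted p of 0.9999 in edgeR's quasi-likelihood test, the rank of 99 by p among all tested genes. Leaving out anti-PD-L1 replicate 1 gave 0.16 ± 0.34 (SE), and leaving out replicate 2 gave 1.78 ± 0.31 (SE). In bulk libraries, a change in the number of cells with a transcript and a change in its amount per cell cannot be told apart.

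Cd244 encodes 2B4, a receptor of the SLAM family that binds CD48. It lies on chromosome 1 from 171559193 to 171609746, plus strand, where the annotation names it Cd244a. Its levels were 105.2 and 21.8 CPM after anti-PD-L1, against 10.99, 20.6 and 44.8 CPM in Control IgG replicates 1, 2 and 3. It differed 4.84-fold between the anti-PD-L1 libraries and 4.07-fold between the highest and the lowest control. The ratio of the highest to the lowest of the 5 libraries was 9.57, the largest of the 8 genes and larger than in 94.6% of the 10588 tested genes with a level above 0 throughout, whose median ratio was 1.96. The log2 fold change was 1.31 ± 0.70 (SE), -0.23 without anti-PD-L1 replicate 1 and 2.00 without Control IgG replicate 3, the control with the highest level. In the annotation the span of Ly9, on the opposite strand, overlaps that of Cd244 over 18787 bases, introns included, and these libraries do not mark strand. Ly9 stood at 216 and 204 CPM after anti-PD-L1, against 251, 184 and 236 CPM in Control IgG. The part of Ly9 reads in the Cd244 values was not tested.

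Btla encodes the B and T lymphocyte attenuator, a relative of CD28 that binds HVEM, and was lowest in the library where Havcr2 and Cd244 were highest. It lies on chromosome 16 from 45224315 to 45257670, plus strand. The counts were 53 and 367 after anti-PD-L1 and 317, 361 and 348 in Control IgG, which gave 4.91 and 27.3 CPM after anti-PD-L1, against 28.3, 33.7 and 26.7 CPM in Control IgG. Replicate 1 stood at 0.166 of the control mean, while replicate 2 and the 3 controls lay within a narrow band. The log2 fold change of -0.87 ± 0.62 (SE) became -0.11 with anti-PD-L1 replicate 1 left out and -2.56 with replicate 2 left out, the second at an adjusted p of 0.24 in edgeR's quasi-likelihood test. Per read of Btla there were 111 and 6.57 reads of Havcr2 in the anti-PD-L1 libraries, against 5.82, 3.67 and 7.2 in the controls. Of all reads of the 8 genes, Havcr2 took 18.3% and 8.7% after anti-PD-L1, against 6.8%, 7.53% and 11.1% in Control IgG, and Btla 0.165% and 1.32%, against 1.17%, 2.05% and 1.54%.

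Ctla4 encodes the CTLA-4 receptor, which competes with CD28 for CD80 and CD86, and it was the receptor gene for which the anti-PD-L1 libraries lay on opposite sides of the controls. The locus is chromosome 1 from 60887000 to 60915832, plus strand, and shares 525 bases with Rpl18-ps1, a ribosomal protein pseudogene on the same strand. Its levels were 127 and 291 CPM after anti-PD-L1, against 204, 183 and 136 CPM in Control IgG. Replicate 1 lay below every control and replicate 2 above every control. The log2 fold change was 0.26 ± 0.37 (SE) over all libraries, -0.43 ± 0.32 (SE) with anti-PD-L1 replicate 2 left out and 0.74 ± 0.32 (SE) with replicate 1 left out. With both libraries numbered 1 left out it was 0.86 ± 0.24 (SE), at an unadjusted p of 0.00208 and an adjusted p of 0.433 in edgeR's quasi-likelihood test, from a single anti-PD-L1 library.

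Promoter sequences in the RefSeq table (GRCm38.p6, 250 bases before to 50 bases after a start site) were matched for 7 of the 8 genes. Those of the pair with the highest ratio of anti-PD-L1 replicate 1 to the controls, of the gene with the lowest such ratio and of the gene above the controls in replicate 2 are shown, 5′ to 3′ along the gene. Capitals mark matches on either strand to GGAAA (the core of NFAT sites), TGANTCA (AP-1) and TGTGGT (RUNX), which do not overlap one another here. The Ctla4 window lies inside the annotated span of the gene, which begins at an earlier start.
Havcr2 promoter, chr11:46454681-46454980, plus strand: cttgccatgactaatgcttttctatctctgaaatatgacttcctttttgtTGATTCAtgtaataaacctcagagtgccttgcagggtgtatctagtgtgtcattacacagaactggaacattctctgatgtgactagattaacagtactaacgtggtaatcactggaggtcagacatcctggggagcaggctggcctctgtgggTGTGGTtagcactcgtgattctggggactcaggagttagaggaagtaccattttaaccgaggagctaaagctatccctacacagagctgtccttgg
Cd244 promoter, chr1:171558943-171559242, plus strand: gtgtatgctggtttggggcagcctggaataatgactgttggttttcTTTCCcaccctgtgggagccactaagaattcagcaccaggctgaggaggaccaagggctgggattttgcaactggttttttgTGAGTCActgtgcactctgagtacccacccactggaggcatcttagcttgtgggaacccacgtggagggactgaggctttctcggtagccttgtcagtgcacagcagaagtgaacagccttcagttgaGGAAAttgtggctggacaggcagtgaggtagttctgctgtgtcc
Btla promoter, chr16:45224087-45224386, plus strand: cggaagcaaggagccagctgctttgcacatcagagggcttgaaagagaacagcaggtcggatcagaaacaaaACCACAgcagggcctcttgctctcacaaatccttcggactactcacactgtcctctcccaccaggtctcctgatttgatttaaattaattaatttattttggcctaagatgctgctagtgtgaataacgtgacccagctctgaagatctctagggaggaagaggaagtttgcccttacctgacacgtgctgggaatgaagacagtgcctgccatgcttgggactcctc
Ctla4 promoter, chr1:60908775-60909074, plus strand: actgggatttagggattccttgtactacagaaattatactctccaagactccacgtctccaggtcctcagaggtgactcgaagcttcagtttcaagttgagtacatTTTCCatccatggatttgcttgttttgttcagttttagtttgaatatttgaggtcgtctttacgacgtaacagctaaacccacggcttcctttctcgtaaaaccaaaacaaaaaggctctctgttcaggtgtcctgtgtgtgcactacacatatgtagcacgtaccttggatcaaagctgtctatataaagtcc

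Havcr2 and Cd244 were the 2 of the 7 genes with a match to the AP-1 letters TGANTCA in this window. The match was TGATTCA at position -200 for Havcr2 and TGAGTCA at -122 for Cd244, counted from the start site. The middle base, which the search left free, thus differed. Of all 32851 promoter windows of that length 7.81% held one. A RUNX match stood in the window of 5 genes (Havcr2, Tigit, Btla, Cd160 and Cd101), and in 16.8% of all windows. NFAT core letters, found in 61.3% of all windows, stood in those of Tigit, Ctla4, Cd244 and Cd101 and in the second listed window of Cd160. Further searches on both strands found AAAGGTCA (NR4A) in 0 of the members' 8 windows and in 1.51% of all windows. CTTTGA (TCF) stood in the Ctla4 window and in the second Cd160 window, and in 16% of all. TCACACC (T-box) stood in the second Cd160 window, and in 3.98% of all. Such a match describes letters and not a bound site.

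Lag3 encodes LAG-3, a CD4-like receptor that binds MHC class II. It lies on chromosome 6 from 124904361 to 124911705, minus strand, with Cd4 as its near neighbour. The levels were 1443 and 829.5 CPM after anti-PD-L1, against 1048, 669.6 and 789.7 CPM in Control IgG replicates 1, 2 and 3. Replicate 1 of each group was the highest library in its group, and anti-PD-L1 replicate 2 lay among the controls. On the log2 scale the fold change was 0.44 ± 0.32 (SE) over all libraries and -0.01 ± 0.35 (SE) without anti-PD-L1 replicate 1.

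Tigit encodes a receptor for CD155 that competes with the activating receptor CD226. Its locus is chromosome 16 from 43648867 to 43664146, minus strand. It stood at 423 and 252 CPM after anti-PD-L1, against 321, 212 and 180.2 CPM in Control IgG. As for Lag3, the libraries numbered 1 were the highest of their groups. Its log2 fold change was 0.50 ± 0.34 (SE), 0.78 ± 0.30 (SE) without Control IgG replicate 1 and 0.08 ± 0.39 (SE) without anti-PD-L1 replicate 1. Across the 5 libraries Lag3 and Tigit were the most alike pair of the 8 genes, with a root-mean-square distance of 0.17 between their log2 deviations, while Btla and Cd244 were the least alike, at 2.03.

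Cd160 encodes a receptor anchored by a lipid that, like BTLA, binds HVEM. It lies on chromosome 3 from 96798763 to 96829351, minus strand, and overlaps Pdzk1 on the opposite strand over 68 bases. Pdzk1 had 33 and 111 counts after anti-PD-L1 and 62 to 73 in Control IgG, against 3054 to 6987 counts of Cd160 in the 5 libraries. Cd160 stood at 283 and 439 CPM after anti-PD-L1, against 624, 381 and 334 CPM in Control IgG. The highest library was Control IgG replicate 1 and the lowest anti-PD-L1 replicate 1, so the pair numbered 1 held both ends of the range. The log2 fold change of -0.31 ± 0.34 (SE) was 0.02 ± 0.28 (SE) without Control IgG replicate 1.

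Cd101 encodes an immunoglobulin superfamily receptor. The locus is chromosome 3 from 100993529 to 101029556, minus strand. It had 39.6 and 23.9 CPM after anti-PD-L1, against 24.8, 18.0 and 29.1 CPM in Control IgG. Replicate 1 after anti-PD-L1 was above all controls and replicate 2 among them, with a log2 fold change of 0.40 ± 0.36 (SE) and of -0.01 ± 0.43 (SE) without anti-PD-L1 replicate 1.

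**Figure D2:**
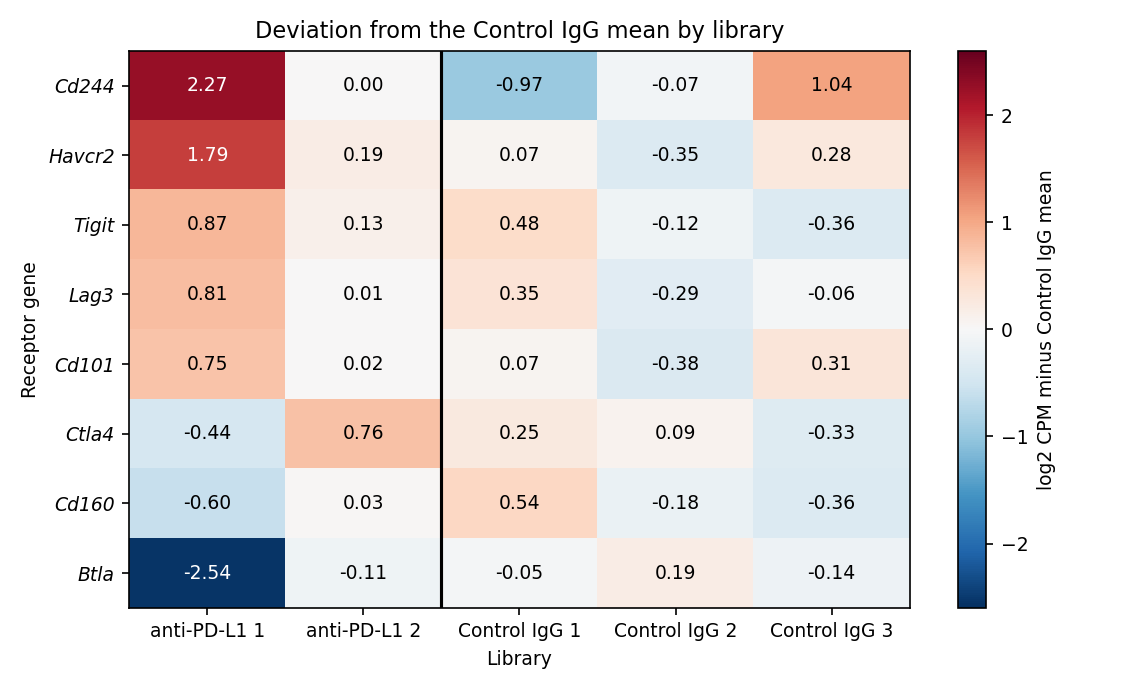
Log2 CPM of each receptor gene (rows) in each library (columns) minus the mean of the 3 Control IgG libraries, with the value printed in each cell. The anti-PD-L1 replicate 1 column runs from 2.27 for Cd244 to -2.54 for Btla, while in the replicate 2 column 7 genes lie between -0.11 and 0.19 and Ctla4 stands at 0.76.

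Set against the control mean, the median receptor gene stood at 0.78 on the log2 scale in the first anti-PD-L1 library and 0.03 in the second, against 0.16, -0.15 and -0.10 in Control IgG replicates 1, 2 and 3. The median over all tested genes lay between -0.04 and 0.04 in every library. Within the pair of libraries with fewer detected genes, anti-PD-L1 replicate 1 minus Control IgG replicate 1 gave 3.24 for Cd244, 1.72 for Havcr2, 0.67 for Cd101, 0.46 for Lag3 and 0.40 for Tigit. The same difference was -0.68 for Ctla4, -1.14 for Cd160 and -2.49 for Btla. Among the other 3 libraries, the log2 fold change of anti-PD-L1 replicate 2 over its 2 controls had the same sign for Havcr2 (0.17), Tigit (0.35), Lag3 (0.17) and Btla (-0.15), and the opposite sign for Ctla4 (0.86), Cd160 (0.29) and Cd244 (-0.61), while Cd101 stood at 0.00. Set against Control IgG replicate 2 alone, anti-PD-L1 replicate 2 differed by 0.54 for Havcr2, 0.40 for Cd101, 0.31 for Lag3, 0.25 for Tigit, 0.08 for Cd244 and -0.30 for Btla, the same signs as in the pair numbered 1, and by 0.67 for Ctla4 and 0.21 for Cd160, the opposite signs. The part of gene detection in these values was not tested. The labels give no mouse or day shared by libraries of the same number. The share of all tested genes with matching signs was not determined, so the signs are a description only.

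**Figure D3:**
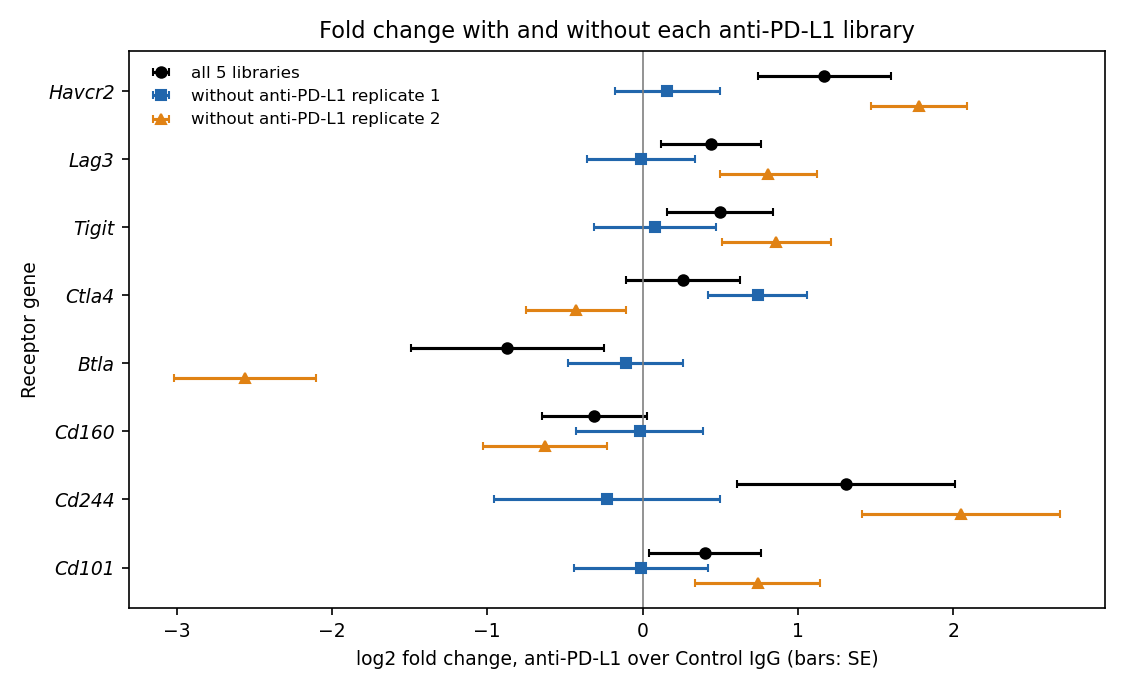
Log2 fold change of anti-PD-L1 over Control IgG with its SE (x axis) for each receptor gene (y axis), from all 5 libraries and with either anti-PD-L1 library left out. Without replicate 1, Ctla4 at 0.74 is the one value more than its SE from 0, and without replicate 2 the values run from -2.56 for Btla to 2.05 for Cd244.

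Levels between genes were compared per kilobase of exon. Lag3 was the most abundant of the 8, at 539 ± 206 CPM per kb after anti-PD-L1 (SD, n = 2) and 396 ± 91.7 CPM per kb in Control IgG (SD, n = 3). It was followed in Control IgG by Tigit at 259 ± 80.3, Cd160 at 169 ± 59.0, Ctla4 at 74.9 ± 14.9 and Havcr2 at 58.9 ± 12.7 CPM per kb, and at a distance by Btla at 8.71 ± 1.08, Cd101 at 7.2 ± 1.68 and Cd244 at 5.22 ± 3.57 CPM per kb. In that order the control ranges of each neighbouring pair overlapped, except between Cd160 (126 to 236) and Ctla4 (58.5 to 87.6) and between Havcr2 (45.4 to 70.6) and Btla (7.85 to 9.92). Lag3 and Tigit were first and second in each of the 5 libraries. Havcr2 ranked 3 of 8 in anti-PD-L1 replicate 1, at 200 CPM per kb, and 5 of 8 in replicate 2, at 66.0 CPM per kb. Btla ranked 8 of 8 in anti-PD-L1 replicate 1, at 1.45 CPM per kb, and 6 of 8 in replicate 2, at 8.05 CPM per kb. Pdcd1, which encodes PD-1, had 699 and 435 CPM per kb after anti-PD-L1, against 358, 342 and 383 CPM per kb in Control IgG.

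**Figure D4:**
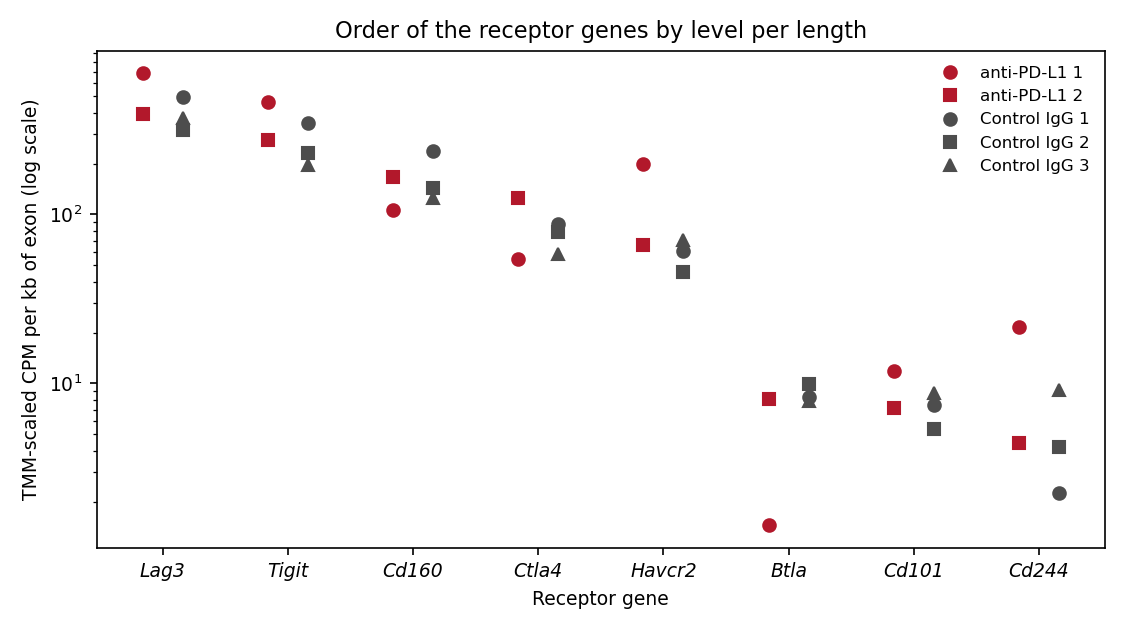
Level per kilobase of exon (y axis, log scale) of each receptor gene (x axis, in the order of the Control IgG means) in the 2 anti-PD-L1 and 3 Control IgG libraries; points are libraries. Lag3, Tigit, Cd160, Ctla4 and Havcr2 lie at 45.4 CPM per kb or above throughout, and Btla, Cd101 and Cd244 at 21.6 or below.

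The genes whose profile over the 5 libraries was nearest to each receptor gene were taken from 7699 candidates, by the root-mean-square distance of log2 deviations. The nearest to Havcr2 were Cd38, an ectoenzyme (0.143), Prf1, which encodes perforin (0.158), and Lfng, a modifier of Notch receptors (0.164). Cd38 stood at 80.5 and 25.0 CPM after anti-PD-L1, against 20.6, 15.0 and 21.4 CPM in Control IgG. Nearest to Btla was Tcf7 (0.121), the gene of TCF-1, a factor of progenitor T cells, with 22.2 and 119 CPM after anti-PD-L1, against 136, 126 and 122 CPM in Control IgG. Abca3 (0.135) and Slc5a6 (0.158) followed. Like Btla, these genes were low in anti-PD-L1 replicate 1 alone.

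Ctla4 had as its nearest genes Jhdm1d (0.112), Ikzf2, which encodes the factor Helios (0.114), and the kinase gene Sik1 (0.120). Ikzf2 had 22.8 and 60.9 CPM after anti-PD-L1, against 37.1, 40.3 and 27.7 CPM in Control IgG. For Cd244, which varied more, the nearest genes lay farther off and were Pik3ap1 (0.253), Pygl (0.301) and the glucose transporter gene Slc2a3 (0.332). Slc2a3 had 489.9 and 172 CPM after anti-PD-L1, against 59.6, 108 and 175 CPM in Control IgG. The other nearest genes were Rac1, Capza1 and Hgsnat for Lag3, Lxn, Cript and Prorsd1 for Tigit, Ddx6, Crtam and Rexo2 for Cd160, and Chtf8, Tpst2 and Arhgap18 for Cd101, at distances of 0.0328 to 0.0856. With 5 libraries, profiles this close are a description, and the likeness rests mainly on 1 library for Havcr2 and Btla.

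**Figure D5:**
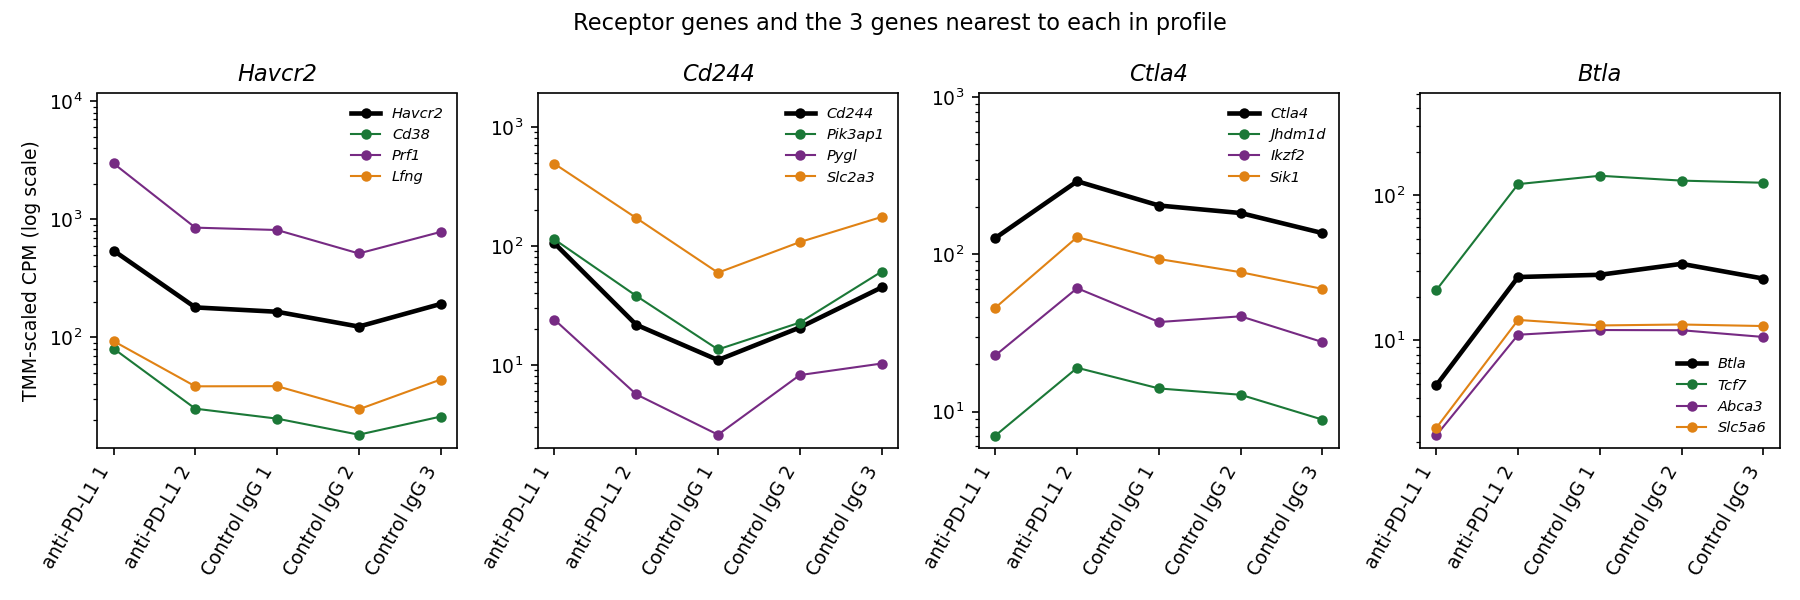
TMM-scaled CPM (y axis, log scale) of Havcr2, Cd244, Ctla4 and Btla (black) and of the 3 genes nearest to each in profile, in each of the 5 libraries (x axis). Tcf7 drops with Btla in anti-PD-L1 replicate 1, to 22.2 CPM, and Prf1 and Cd38 peak there with Havcr2, at 2973 and 80.5 CPM.

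Ligands of the receptors were also among the transcripts. Of 16 ligand genes 11 were tested, 5 with a fold change above 0 and 6 below, with a median of -0.03 and 0 past the adjusted threshold. Lgals3, which encodes galectin-3, a reported ligand of LAG-3, had 916 and 405 CPM after anti-PD-L1, against 248, 236 and 280.2 CPM in Control IgG. Both anti-PD-L1 libraries thus lay above every control, with a log2 fold change of 1.38 ± 0.34 (SE), an unadjusted p of 0.00372 and an adjusted p of 0.9999 in edgeR's quasi-likelihood test. Leaving out anti-PD-L1 replicate 1 gave 0.67, and leaving out both libraries numbered 1 gave 0.64. Lgals3 was the 1 of the 11 tested ligand genes with both anti-PD-L1 libraries above all controls, where 7.74% of all tested genes had this. It was named for its small p in these data, which goes with such a separation. H2-Eb1, an MHC class II chain, had the next smallest p at -0.69 ± 0.63 (SE) and was highest in Control IgG replicate 1, at 97.1 CPM. Tnfrsf14, the gene of HVEM, lay at 4.73 and 5.96 CPM after anti-PD-L1, against 4.11 to 8.12 CPM in Control IgG. Cd48, the ligand of 2B4, lay at 639 and 339.7 CPM after anti-PD-L1, against 332 to 544.9 CPM in Control IgG.

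Activating receptors and ligands on the same axes had 4 of 7 fold changes above 0 and a median of 0.17. Lta, which encodes lymphotoxin alpha, another ligand of HVEM, had 13.2 and 48.1 CPM after anti-PD-L1, against 61.0, 80.9 and 52.1 CPM in Control IgG, at -1.07 ± 0.51 (SE). Tnfsf14, the gene of LIGHT, was at -0.51 ± 0.43 (SE). Among 19 tested signalling and trafficking partners 11 lay above 0, with a median of 0.00. Adam17, a protease that sheds LAG-3, stood at 0.98 ± 0.67 (SE) and had 6.35 CPM in Control IgG replicate 1 against 38.5 to 75.4 CPM in the other 4 libraries. Inpp5d, the gene of the phosphatase SHIP1, stood at 0.30 ± 0.24 (SE), and all 3 controls were below its anti-PD-L1 libraries. That held for 2 of the 19 tested partners and for 7.74% of all tested genes. Inpp5d was named as 1 of the 2 genes of smallest p in its list.

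Of 16 transcription factors reported to act on these receptor genes 8 lay above 0 and 8 below, with a median of 0.00. Prdm1, which encodes Blimp-1, had 121 and 66.1 CPM after anti-PD-L1, against 48.0, 49.4 and 54.1 CPM in Control IgG, at 0.89 ± 0.30 (SE). Tcf7 was at -0.85 ± 0.58 (SE). The other inhibitory receptors had 8 of 13 above 0 and a median of 0.10. Pdcd1 had 1349 and 839.9 CPM after anti-PD-L1, against 691, 659 and 739 CPM in Control IgG, a log2 fold change of 0.65 ± 0.27 (SE), which was 0.27 without anti-PD-L1 replicate 1. Cd200r1, the receptor for CD200, had 15.1 and 9.53 CPM after anti-PD-L1, against 0.626, 6.91 and 4.29 CPM in Control IgG, a log2 fold change of 1.64 ± 0.81 (SE) that was 0.76 without both libraries numbered 1 and 2.31 without Control IgG replicate 2. For both of these genes the anti-PD-L1 libraries lay above all controls, the 2 of the 13 tested that did so, where 7.74% of all tested genes did. In 1 of the 13 both lay below all controls. Cd200r1 was named for its small p in these data, which goes with such a separation. No gene of these lists passed the adjusted threshold.

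Genes next to the receptor genes on the chromosome had 6 of 11 fold changes above 0, with a median of 0.07. Beside Ctla4, its relatives Cd28 and Icos stood at -0.10 ± 0.29 (SE) and 0.25 ± 0.30 (SE). Icos had the same order of the anti-PD-L1 libraries as Ctla4, at 146.5 and 244 CPM, against 132 to 190.4 CPM in Control IgG. Near Cd244 in the SLAM cluster, Slamf6 stood at -1.11 ± 0.50 (SE), with 24.1 and 87.5 CPM after anti-PD-L1, against 120.5, 149 and 91.8 CPM in Control IgG. Beside Havcr2, Havcr1 and Timd2 were listed at 0 counts in every library.

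Several of the receptors are also made by other cells, and the summed markers of those cells were as follows. Natural killer markers summed to 20.4 and 51.8 CPM after anti-PD-L1, against 38.0 to 51.2 CPM in Control IgG, and of the 8 markers Ncr1, Klra8 and Klra4 had at most 3 counts in any library. The sum for macrophage and monocyte markers was 72.8 and 105 CPM after anti-PD-L1, against 70.5 to 162 CPM in Control IgG, and for dendritic cell markers 71.9 and 140 CPM, against 61.3 to 146 CPM. In anti-PD-L1 replicate 1, where Havcr2 and Cd244 were highest, the natural killer sum was below every control and the other 2 sums lay among the controls. Eomes, on average the most abundant natural killer marker, had 6.04 CPM there, against 18.8 to 29.6 CPM in Control IgG. Eomes is also among the transcription factors counted above. Klrb1f, at 3.71 CPM, lay below all controls too (6.37 to 9.71 CPM). Tyrobp, at 7.69 CPM, and Klrb1c, at 2.94 CPM, lay among the controls. Of the dendritic and macrophage markers, Xcr1 (18.1 CPM) and Itgam (6.65 CPM) lay above all controls (4.84 to 5.44 and 1.2 to 2.68 CPM). Zbtb46 (0 CPM) and Lyz2 (20.6 CPM) lay below them (3.41 to 7.1 and 25.8 to 50.6 CPM). So did Csf1r (2.16 CPM) and C1qb (13.1 CPM), against 2.68 to 4.44 and 14.2 to 49.3 CPM in Control IgG. The part of these markers in the Havcr2 and Cd244 values was not tested. CD4+ and regulatory T cell markers summed to 38.8 and 90.2 CPM after anti-PD-L1, against 46.5 to 69.1 CPM in Control IgG, lowest in anti-PD-L1 replicate 1 and highest in replicate 2 as for Ctla4, with Ikzf2 and Cd40lg the most abundant of the 5. Of the 5, Ikzf2 alone was lowest in anti-PD-L1 replicate 1 and highest in replicate 2, and it is also among the genes nearest to Ctla4 in profile. Foxp3 had 4.40 and 5.85 CPM after anti-PD-L1, against 2.74, 6.51 and 2.52 CPM in Control IgG, and Zbtb7b in anti-PD-L1 replicate 1, at 6.04 CPM, lay above all controls. The part of these markers in the Ctla4 values was not tested. B cell markers summed to 1.30 and 5.07 CPM after anti-PD-L1, against 3.61 to 6.49 CPM in Control IgG. The sum was lowest in anti-PD-L1 replicate 1, as was Btla. Most of each sum was Cd79b, at 0.95 and 4.91 CPM after anti-PD-L1, against 3.3 to 6.01 CPM in Control IgG. Cd79a, at 1 to 5 counts per library, was not lowest in anti-PD-L1 replicate 1. Ms4a1 and Pax5 had at most 3 counts in any library, and the part of these markers in the Btla values was not tested. Melanoma markers summed to 40.1 and 103 CPM after anti-PD-L1, against 4.03 to 300 CPM in Control IgG. Neutrophil and mast cell markers summed to 5.53 and 4.75 CPM, against 0.565 to 3.10 CPM, and fibroblast and endothelial markers to 28.5 and 48.9 CPM, against 39.5 to 58.3 CPM.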

How the data were processed

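The values are whole-number read counts for each gene symbol, deposited by the authors without normalization, from 5 libraries of sorted tumor-infiltrating OT-I CD8+ T cells (2 anti-PD-L1, 3 Control IgG). TopHat, HTSeq and the mouse build mm10 are named per the submitters' processing notes. Their versions, the annotation and the strand setting are not stated there. Per the labels' protocols, poly(A) RNA of 5000 to 30000 cells went through 8 cycles of a Smart-seq2 amplification and 12 cycles of PCR after tagmentation, which marks neither strand nor molecule. PCR copies therefore count as separate reads. The 5 counter lines of each file entered neither library sizes nor tests. The share of counts without a feature was 7.46% to 15.2%, and that of ambiguous reads 1.38% to 1.51%.

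The test was the two-sided quasi-likelihood F-test of edgeR 4.0.16 under R 4.3.3, after TMM scaling and filterByExpr (count at least 10, total at least 15), and p-values were adjusted over all tested genes by the Benjamini-Hochberg method at 0.05. Fold changes are anti-PD-L1 over Control IgG, and the SE is the log2 fold change divided by the square root of F. CPM values are scaled by TMM factors, except marker sums and the CPM of single marker genes given with them, which use library totals. Log2 CPM used a prior count of 2. Which mice a library pooled is not in the labels, and a p-value therefore reflects the spread among pools alone. A floor of 3 counts lay at 0.234 to 0.300 CPM and, like any count error here, covers counting only. Alternatives were DESeq2 1.42.0, limma-voom 3.58.1, other normalizations, no filter, a replicate block and libraries left out. The edgeR step was tested on simulated data. Coordinates and exon lengths come from GENCODE vM21 on GRCm38, and promoter sequences from RefSeq.

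The members, the gene lists and the tests were chosen with earlier results of these data known. Named beside the members are Pdcd1, the 2 genes of smallest p in each list and the 3 tested genes of nearest profile to each member (mean log2 CPM of at least 3, no predicted gene models). Neighbours are named where they overlap or adjoin a member. Tnfrsf14 and Cd48 were chosen after their values were seen. Not reported here is the level of 1 marker gene.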

Additional observations from a re-analysis of the deposited data

How the results depend on the processing

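No receptor gene passed the adjusted threshold in any of the 12 alternatives. The count of all genes higher was 4 with DESeq2, 5 with no low-count filter and 1 without both libraries numbered 1, against 0 in the main test, and ran from 0 to 0 with 1 library left out. The count of genes lower was 0 throughout. Fold changes turned sign without anti-PD-L1 replicate 1 for Lag3 (-0.01), Cd101 (-0.01), Cd244 (-0.23) and Tnfsf14 (0.06), without anti-PD-L1 replicate 2 for Ctla4 (-0.43), and without Control IgG replicate 1 for Cd160 (0.02) and H2-Eb1 (0.15). With 1 library left out the context genes ran from -1.42 to 0.15 (H2-Eb1), -1.48 to 0.06 (Tnfsf14), 0.67 to 1.87 (Lgals3), 1.14 to 2.31 (Cd200r1), 0.27 to 0.98 (Pdcd1), 0.39 to 1.28 (Prdm1), 0.50 to 1.42 (Adam17), 0.19 to 0.43 (Inpp5d), -2.27 to -0.43 (Lta), -2.50 to -0.10 (Tcf7) and -2.30 to -0.46 (Slamf6). Without both libraries numbered 1 signs turned for Cd160 (0.29), Cd244 (-0.61) and H2-Eb1 (0.62). The median over the 8 genes ran from -0.01 to 0.78, and the number above 0 from 3 to 7, with 1 library left out; the median was 0.17 without both libraries numbered 1. In leave-one-out fits that leave a single anti-PD-L1 library, that library is assumed to vary like the controls.

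With 1 library left out, the log2 fold change ran from 0.16 to 1.78 for Havcr2, -0.01 to 0.81 for Lag3, 0.08 to 0.86 for Tigit, -0.43 to 0.74 for Ctla4, -2.56 to -0.11 for Btla, -0.63 to 0.02 for Cd160, -0.23 to 2.05 for Cd244 and -0.01 to 0.74 for Cd101. RLE size factors, library totals only (added after the data were seen), DESeq2, limma-voom and no filter left all 8 signs as they were. The replicate block, where the groups share the numbers 1 and 2 but the labels give no shared mouse or day, moved Ctla4 to -0.01 and called 0 genes. Number 3 is in Control IgG alone, so under the block Control IgG replicate 3 does not enter the fold change. At an unadjusted p under 0.05 in edgeR's quasi-likelihood test, 354 genes were higher and 251 lower under this block. Without it, from all 5 libraries, 134 were higher and 107 lower. With the longest RefSeq-paired transcript as the length, Ctla4 stood at 90.3 CPM per kb in Control IgG. The cause of these changes was not tested.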
